A study of Rattus norvegicus with 18 samples.

Results

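Egr1, Egr2, Egr3 and Egr4 are the 4 genes of the early growth response family of zinc finger transcription factors. They were taken by name from a table of raw gene counts, where each name matched 1 row, and they are 4 of 34873 genes listed and 4 of 16581 with enough counts to be tested. The table covers 18 libraries of rat brain in 3 groups of 6. The NC group was wild type with no treatment. The CO group was wild type and inhaled carbon monoxide (CO). The CLCF1 group inhaled CO too, and its label gives a CLCF1 knock-down. Clcf1 encodes a cytokine that acts on the receptor of ciliary neurotrophic factor. CO exposure, in the design text, was at 1000 ppm for 40 min and at 3000 ppm for 20 min, to a carboxyhemoglobin above 60%. The same text describes Clcf1 shRNA delivered by lentivirus to cultured macrophages from bone marrow, and macrophage transfer into rats treated with chloroquine phosphate liposomes. It does not say that NC or CO rats received liposomes or cells, so the knock-down and these steps cannot be told apart in the CLCF1 group. Age, sex, brain region and the time between exposure and sampling are not stated in the labels.

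Egr genes are immediate early genes: in neurons their transcription starts within minutes of synaptic activity or growth factor signals, with no need for new protein. Calcium and the MAP kinase ERK act on serum response factor, its ternary complex partners and CREB at the Egr promoters. The proteins made then bind GC-rich sites in other genes, and the co-repressors Nab1 and Nab2 hold some of them back. Egr1 (also NGFI-A) is used as a marker of recent neuronal activity. Egr2 (also Krox20) is best known for hindbrain patterning and for myelination by Schwann cells, Egr3 acts in neurons and muscle spindles, and Egr4 (also NGFI-C) is restricted largely to nervous tissue and germ cells.

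Libraries held 15111830 to 20339652 counts. Levels are given as CPM, counts relative to the total of the library, with library sizes scaled by the trimmed mean of M-values (TMM) and ± for the SD of 6 libraries. Log2 fold changes carry their standard error, and adjusted p-values come from edgeR's quasi-likelihood test over all 16581 genes, with a threshold of 0.05. Clcf1 itself had 1 to 7 counts in NC libraries, 80 to 118 in CO and 0 to 3 in CLCF1, in the direction of the label. Libraries 3 to 6 stood apart from libraries 1 and 2 in each group: of 42660 cases in which a gene had no count in both libraries 1 and 2 of a group, 0 had a count in any of libraries 3 to 6. In libraries 1 and 2 of another group, 6.17% to 11.9% of such genes had counts. Libraries 3 to 6 are therefore not shown to be independent samples, and the fold changes of the Egr genes and the counts over gene lists are followed by their values in libraries 1 and 2 alone and in libraries 3 to 6 alone. No label ties libraries to separate animals, so p-values measure the spread between libraries, which may be technical. Of the brain markers read as a check, all 10 pan-neuronal, all 8 astrocyte, all 8 oligodendrocyte and all 10 microglial genes had counts, whereas the endothelial gene Cldn5 was at 0 in every library.

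The promoters of 3 of the 4 genes are in RefSeq's GRCr8 annotation table, and are shown because they hold a common arrangement of binding motifs. The table has no entry for Egr3. Bases 190 to 21 before the annotated transcription start are printed, read along the gene's strand. They lie at chr18:26736888-26737057 on the plus strand for Egr1, at chr20:21054462-21054631 on the minus strand for Egr2 and at chr4:119607838-119608007 on the minus strand for Egr4. Capitals mark matches to the CArG box, the site of serum response factor, to the CREB half-site TGACG or its complement CGTCA, and in Egr4 a CArG-like stretch.
Egr1: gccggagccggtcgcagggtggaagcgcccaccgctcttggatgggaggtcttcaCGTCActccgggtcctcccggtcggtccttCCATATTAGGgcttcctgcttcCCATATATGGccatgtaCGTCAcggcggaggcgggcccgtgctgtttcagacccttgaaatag
Egr2: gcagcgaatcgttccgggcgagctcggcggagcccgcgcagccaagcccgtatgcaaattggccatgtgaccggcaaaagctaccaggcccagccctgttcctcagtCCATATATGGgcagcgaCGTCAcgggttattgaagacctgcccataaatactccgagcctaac
Egr4: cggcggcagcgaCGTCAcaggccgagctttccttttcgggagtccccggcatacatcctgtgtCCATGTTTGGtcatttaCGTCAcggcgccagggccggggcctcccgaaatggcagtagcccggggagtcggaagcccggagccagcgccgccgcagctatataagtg

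Egr1 and Egr2 held the same CArG box at the same place, CCATATATGG at positions -83 to -74, followed after 7 bases by CGTCA at positions -66 to -62. Egr1 held another CArG box, CCATATTAGG, at positions -105 to -96. A CArG box was found on either strand in 1.64% of 27455 rat promoter windows of 300 bases, and more than 1 in 0.0255%. The half-site TGACG was found on either strand in all 3 Egr windows and in 22% of all windows. The full cAMP response element TGACGTCA was in none of the 3 and in 1.91% of all windows. Egr4 held no CArG box, but CCATGTTTGG, with 1 letter of the A/T core replaced, stood at the same spacing of 7 bases from CGTCA, at positions -127 to -106 as a unit. A CArG box, 7 bases and CGTCA along the gene's strand occurred in 3 of 27455 windows, those of Egr1, Egr2 and Dusp5. With 1 core letter replaced it occurred in 5, which adds Egr4 and Fosl1. This arrangement was searched for after the 3 sequences had been read, and a match to letters is a description and not a site shown to be bound. The Egr consensus GCGNGGGCG was in none of the 3 Egr windows and in 5.29% of all windows, over both strands.

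In untreated brain, Egr1 was the most abundant member. Per kb of the table's gene length, which allows levels of different genes to be compared, Egr1 stood at 71.1 ± 16.8 CPM per kb in NC, higher than 92.5% of genes tested. Egr3 and Egr4 stood at 17.4 ± 5.88 and 15.3 ± 8.77 CPM per kb, the 71.8 and 69.3 percentiles, and differed by less than their spread. Egr2 was lowest by mean, at 6.67 ± 2.55 CPM per kb, near the middle of all genes (49.9 percentile). Egr1 led in all 18 libraries, but the order of the others changed with the group. In the CO group all 6 libraries ran Egr1, Egr4, Egr3, Egr2, whereas this order held in 1 NC library and 1 CLCF1 library. In the CLCF1 group, 5 of 6 libraries ran Egr1, Egr3, Egr4, Egr2, an order that also held in 3 of 6 NC libraries.

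**Figure D1:**
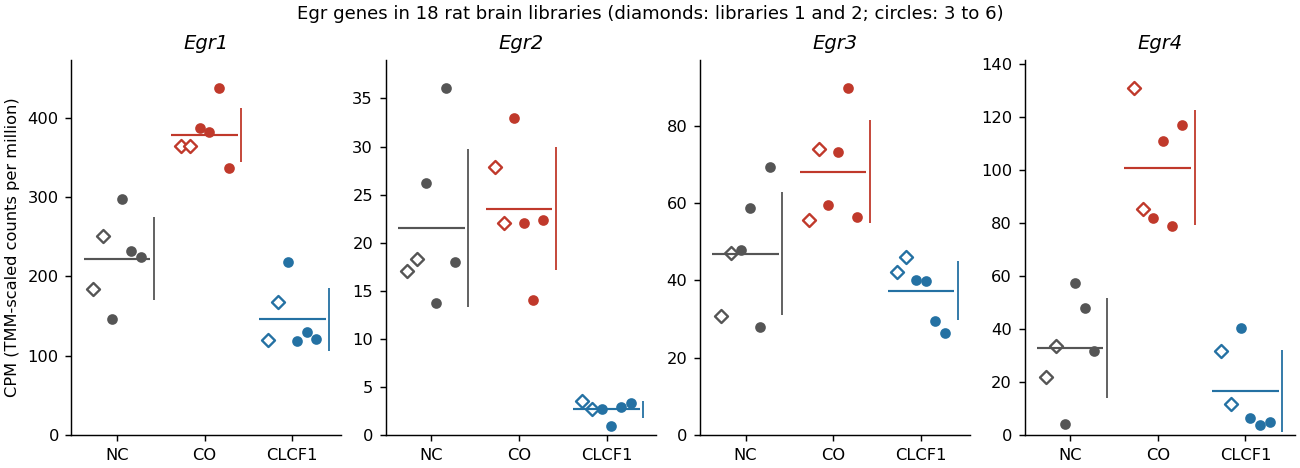
CPM of the 4 Egr genes (y axes from 0, each with its own scale) in the 3 groups of 6 libraries; open diamonds are libraries 1 and 2, filled circles libraries 3 to 6, horizontal lines group means and vertical bars the mean ± SD. Every CLCF1 library lies below every CO library for each gene, and for Egr1 and Egr4 every CO library lies above every NC library.

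CO against NC compares brains after inhaled CO with untreated ones. Egr1 rose and was the 1 member of 4 that passed. Of all genes tested, 6.32% passed as higher and 6.40% as lower. Egr4 had the largest fold change of the family but wide spread in NC, and Egr3 and Egr2 did not pass either. For Egr1 and Egr4, 2 of 4 members, all CO libraries lay above all NC libraries, which held for 3.15% of genes tested.

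Egr1, on chromosome 18 at positions 27657628 to 27661429 of the plus strand (in the table's own genome build, which it does not name, as for the other members), ran from 146 to 298 CPM in NC with a median of 228. In CO it ran from 337 to 438 with a median of 373. The groups did not overlap, and CO libraries were closer together, with an SD of 34.1 CPM against 52.6 in NC. The log2 fold change was 0.77 ± 0.17 (edgeR adjusted p = 0.007), a 1.70-fold rise, and it passed without any 1 library, at 0.67 to 0.87. Libraries 1 and 2 alone gave 0.73 ± 0.23 and libraries 3 to 6 alone 0.78 ± 0.24. The sizes were close, but neither subset passed (edgeR adjusted p = 0.999 and 0.0744).

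Egr4, on chromosome 4 at positions 117293620 to 117296082 of the minus strand, ran from 4.22 to 57.3 CPM in NC with a median of 32.6. In CO it ran from 78.9 to 131 with a median of 97.9. NC library 3 was the lowest, with 75 counts where the other NC libraries held 329 to 1020. The log2 fold change of 1.62 ± 0.55, 3.08-fold, did not pass (edgeR adjusted p = 0.0568). It did pass with DESeq2 (adjusted p = 0.0351), with only NC and CO in the fit (edgeR adjusted p = 0.0267), with no filter on low counts (edgeR adjusted p = 0.0487) and in 4 of 18 fits that left out a library. Over 9 alternative fits its adjusted p ran from 0.0267 to 0.99. Its size was 1.96 in libraries 1 and 2 alone and 1.46 in libraries 3 to 6 alone.

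Egr3, on chromosome 15 at positions 51756736 to 51760715 of the plus strand, ran from 27.8 to 69.3 CPM in NC and from 55.7 to 89.8 in CO, and the groups overlapped. Its log2 fold change of 0.54 ± 0.20 did not pass (edgeR adjusted p = 0.0884), except without NC library 6, the highest of its group (edgeR adjusted p = 0.0371). It was 0.72 in libraries 1 and 2 alone and 0.45 in libraries 3 to 6 alone. Egr2, on chromosome 20 at positions 22454463 to 22459025 of the minus strand, had the smallest difference. It ran from 13.7 to 36.1 CPM with a median of 18.2 in NC, and from 14.0 to 33.0 with a median of 22.2 in CO. The log2 fold change was 0.13 ± 0.27 (edgeR adjusted p = 0.792), with an interval of -0.40 to 0.65 (1.96 standard errors each way). Libraries 1 and 2 alone gave 0.48 and libraries 3 to 6 alone -0.04, so the sign of this small value depended on the libraries.

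Neuronal markers moved in the same comparison. The summed level of 10 pan-neuronal genes ran from 5060 to 5670 CPM in NC and from 6330 to 6950 in CO, without overlap. Sums over 9 genes of cortical projection neurons ran from 1200 to 1840 and from 1870 to 2600, also without overlap. Sums over 10 genes of striatal projection neurons, cells that express Egr genes, ran from 361 to 1950 in NC and from 1690 to 2970 in CO. All markers of these 3 lists had counts. Gene by gene, 3 of 10 pan-neuronal, 3 of 9 cortical and 1 of 10 striatal genes passed as higher and none as lower. Their median log2 fold changes were 0.26, 0.54 and 0.84, and 6.32% of all genes passed as higher. None passed in libraries 1 and 2 alone. In libraries 3 to 6 alone 2 pan-neuronal and 1 cortical gene passed as higher. Some other lists had lower mean sums in CO. Pericyte and smooth muscle genes (8) summed to 237 to 306 CPM in NC and 90.7 to 198 in CO. Fibroblast and meningeal genes (8) summed to 772 to 1040 and 244 to 955. Those of monoamine neurons (7) summed to 27.5 to 284 and 16.5 to 63.8. Of those tested, 3 of 8, 4 of 8 and 3 of 5 passed as lower (6.40% of all genes), and none as higher. Mean sums of astrocyte, endothelial and choroid plexus genes were 5340, 184 and 71.9 CPM in NC and 4510, 150 and 19.5 in CO. There, 1 of 8, 0 of 6 and 1 of 7 passed as lower. No gene of these lists passed in libraries 1 and 2 alone. In libraries 3 to 6 alone 1 pericyte, 1 fibroblast and 4 monoamine genes passed as lower. Mean sums were higher in CO for oligodendrocyte (15200 against 14900 CPM), oligodendrocyte precursor (475 against 414) and microglial genes (435 against 422). In whole tissue, more cells of a type and more RNA per cell cannot be told apart, and the part of these markers in the Egr results was not tested.

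CLCF1 against CO compares the group labelled as knock-down with wild type rats that also inhaled CO. All 4 Egr genes were lower in the CLCF1 group and all 4 passed, where 8.34% of genes tested passed as lower and 8.63% as higher. In all 4, the 6 CLCF1 libraries lay below the 6 CO libraries, which held for 3.65% of genes. Egr2 fell most, 8.84-fold, followed by Egr4 (6.11-fold), Egr1 (2.60-fold) and Egr3 (1.83-fold). It shares its CO libraries with the comparison of CO and NC.

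Egr2, which had the smallest difference between CO and NC, ran from 0.922 to 3.52 CPM in CLCF1 with a median of 2.78. Its counts there were 59, 55, 50, 17, 53 and 61 in libraries 1 to 6, against 467, 341, 524, 346, 223 and 352 in CO. The highest CLCF1 library was below the lowest CO library, at 14.0 CPM, by a wide margin. The log2 fold change was -3.14 ± 0.30 (edgeR adjusted p = 1.88e-05), rank 2 by p-value among 16581 genes. Libraries 1 and 2 alone gave -3.02 and passed (edgeR adjusted p = 0.0172). In those libraries 8 of 16820 genes passed, and Egr2 was the only family member among them. Libraries 3 to 6 alone gave -3.23. In rank among all genes of the CLCF1 group, Egr2 stood at the 11.6 percentile per kb, against 52.1 in CO.

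Egr4 ran from 3.90 to 40.3 CPM in CLCF1 with a median of 9.09, and Egr1 from 118 to 218 with a median of 125. Egr4 spread widely in this group: libraries 1 and 3 held 531 and 748 counts, and the other 4 held 72 to 242. The log2 fold changes were -2.61 ± 0.57 for Egr4 (edgeR adjusted p = 0.00486) and -1.38 ± 0.17 for Egr1 (edgeR adjusted p = 0.000156). Egr3 ran from 26.3 to 46.1 CPM, below its CO range of 55.7 to 89.8, with a log2 fold change of -0.87 ± 0.21 (edgeR adjusted p = 0.00818). All 4 genes passed without any 1 library. Libraries 1 and 2 alone gave -2.32 for Egr4, -1.35 for Egr1 and -0.57 for Egr3, none of which passed there (edgeR adjusted p = 0.387, 0.203 and 1). Libraries 3 to 6 alone gave -2.80, -1.40 and -1.05, all of which passed (edgeR adjusted p = 0.0484, 0.00548 and 0.0295).

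Neuronal marker sums ran from 5670 to 6790 CPM for pan-neuronal, 1420 to 1860 for cortical and 456 to 1890 for striatal genes in the CLCF1 group, each with a mean between those of NC and CO. Gene by gene in CLCF1 against CO, 3 of 10 pan-neuronal, 2 of 9 cortical and 1 of 10 striatal genes passed as lower. As higher, 1 pan-neuronal gene passed (of all genes, 8.34% lower and 8.63% higher). Median log2 fold changes were -0.16, -0.42 and -0.8. Against NC they were 0.2, 0.13 and, for striatal genes, -0.35. None passed in libraries 1 and 2 alone. In libraries 3 to 6 alone, 2 pan-neuronal and 1 striatal gene were lower, and 1 pan-neuronal gene higher. The 7 choroid plexus genes summed to 65.7 to 5980 CPM in CLCF1 libraries and 0.882 to 42.3 in CO, and the 10 microglial genes to 432 to 548 and 362 to 482. Markers of Schwann cells, which depend on Egr2, summed to 83.2 to 115 CPM in CLCF1 and 99.4 to 135 in CO, over 6 genes of which Ncmap was at 0. Of 5 tested, 1 passed as higher in CLCF1 against CO and none as lower (median -0.21, with 8.63% of all genes higher). None passed in libraries 1 and 2 alone, and 1 passed as higher in libraries 3 to 6 alone. Sox10 in this list also marks oligodendrocyte precursors, so the sum is not particular to Schwann cells. The part of these differences in the Egr results was not tested.

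CLCF1 against NC shares libraries with both other comparisons. Egr2 and Egr1 were lower in CLCF1 than in untreated brain, 2 of 4 members, where 4.84% of genes tested passed as lower and 4.43% as higher. Egr2 was below NC in every library, as were 2.90% of genes, with a log2 fold change of -3.02 ± 0.30 (edgeR adjusted p = 2.25e-05, rank 3 by p-value). Libraries 1 and 2 alone gave -2.53, which did not pass (edgeR adjusted p = 0.0874), and libraries 3 to 6 alone -3.27, which did (edgeR adjusted p = 0.00196). For Egr1 the difference was -0.61 ± 0.17 (edgeR adjusted p = 0.0287), with 4 of 6 CLCF1 libraries below the NC range. That call was lost in 5 of 18 fits that left out 1 library: NC 2 or 4 or CLCF1 4, 5 or 6 (edgeR adjusted p up to 0.0681). It was also lost, at a value of -0.62 each time, in libraries 1 and 2 alone (edgeR adjusted p = 1), in libraries 3 to 6 alone (edgeR adjusted p = 0.163) and with only the 2 groups in the fit (edgeR adjusted p = 0.0558). Egr4 (-0.99 ± 0.54) and Egr3 (-0.33 ± 0.20) did not pass (edgeR adjusted p = 0.267 and 0.33). Egr4 was -0.36 in libraries 1 and 2 alone and -1.35 in libraries 3 to 6 alone. Egr3 was -0.59 in libraries 3 to 6 alone but 0.16 in libraries 1 and 2 alone: its CLCF1 libraries 1 and 2, at 42.1 and 46.1 CPM, lay above libraries 3 to 6, at 26.3 to 40.0.

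**Figure D2:**
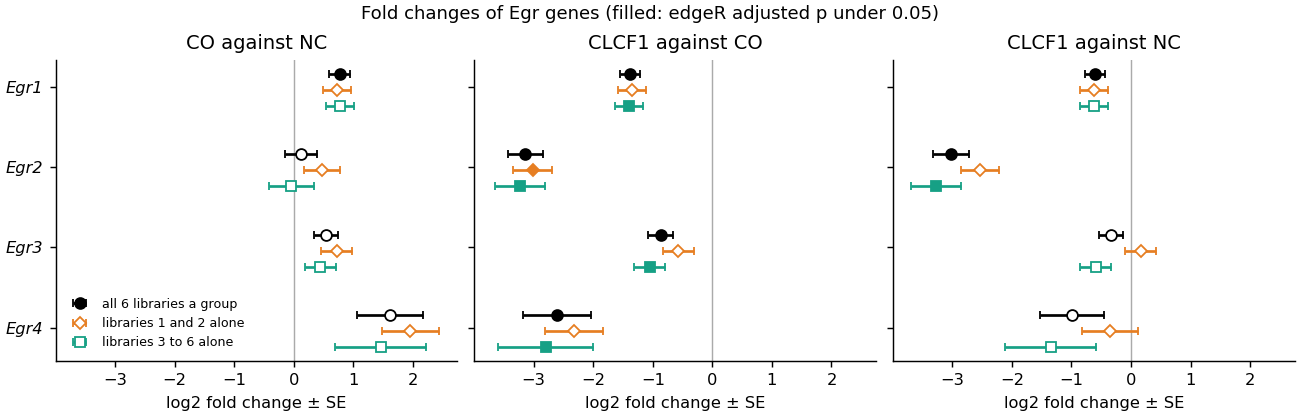
Log2 fold changes ± SE (x axis) of the 4 Egr genes (y axis) in the 3 comparisons, for all 6 libraries a group (black circles), libraries 1 and 2 alone (orange diamonds) and libraries 3 to 6 alone (green squares); filled symbols have an edgeR adjusted p under 0.05. In CLCF1 against CO all values are negative, from -0.57 for Egr3 to -3.23 for Egr2, and Egr2 is filled in all 3 fits.

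The make-up of the family changed with the group. Summed over the 4 genes per kb, Egr RNA was 110 ± 26.4 in NC, 200 ± 10.4 in CO and 68.9 ± 19.8 CPM per kb in CLCF1. CO libraries ran from 190 to 214, above the highest NC library (148) and the highest CLCF1 library (104). Egr1 made up 64.5 ± 3.02% of the sum in NC, 60.3 ± 3.74% in CO and 68.2 ± 7.34% in CLCF1. The share of Egr4 was 12.9 ± 5.83% in NC, 23.5 ± 5.08% in CO and 9.91 ± 7.64% in CLCF1. The share of Egr2 was 6.48 ± 3.08%, 3.66 ± 1.07% and 1.25 ± 0.55%. The log2 ratio of Egr3 to Egr2 per kb ran from 1.11 to 2.93 in CO, from -0.12 to 2.36 in NC and from 3.26 to 5.68 in CLCF1, so that the CLCF1 libraries lay apart from both. These shares and ratios are descriptions and were not tested.

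**Figure D3:**
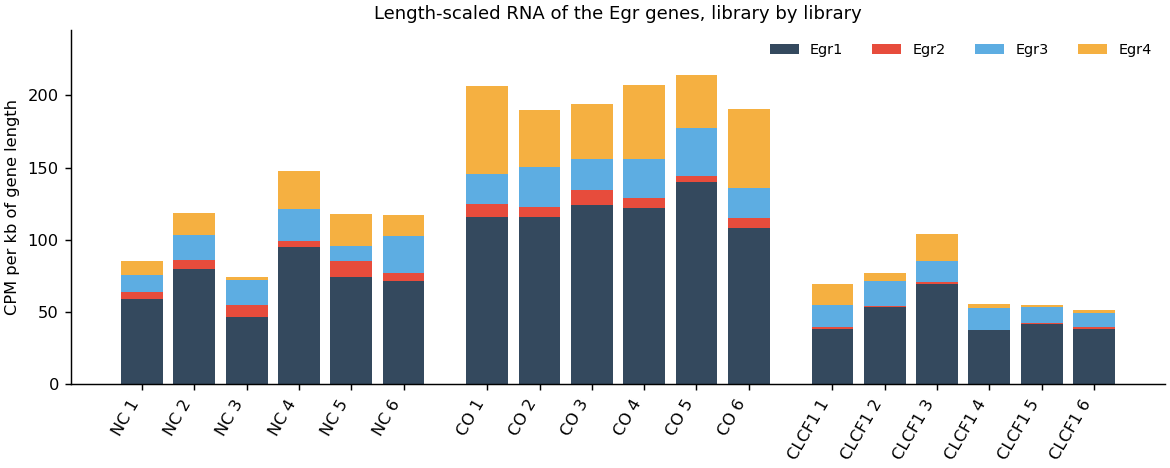
Stacked bars of CPM per kb of gene length (y axis, from 0) for Egr1, Egr2, Egr3 and Egr4 in each of the 18 libraries (x axis). The CO bars stand at 190 to 214 and the CLCF1 bars at 51.6 to 104, where the Egr2 segment is barely visible.

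Within groups, Egr1 and Egr4 varied together more closely than the other pairs over 18 libraries and over libraries 3 to 6. Deviations of log2 CPM from the group mean had a Pearson r of 0.69 between Egr1 and Egr4 over 18 libraries, and 0.88 over libraries 3 to 6 (12 libraries). NC library 3 was lowest and CLCF1 library 3 highest of its group for both genes. From library 1 to library 2, both genes rose in NC (Egr1 184 to 251 CPM, Egr4 21.8 to 33.4). In CO, Egr1 was 364 CPM in both while Egr4 went from 131 to 85.2. In CLCF1, Egr1 went from 120 to 168 CPM while Egr4 went from 31.6 to 11.8. For Egr2 and Egr3 the r of these deviations was -0.47, and for Egr1 and Egr2 it was -0.12. Libraries share their depth scaling and group, and these values are descriptions.

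By Pearson correlation of log2 CPM over 18 libraries, among 14111 named genes with a mean log2 CPM above 0, the genes most like Egr1 were Cldn23, Csrnp3, Egr4, Ercc2 and Dnajb1 (r 0.872 to 0.909). Those most like Egr4 were Rnf207, Plekhf1, Egr1, Cldn23 and Akap17a (0.870 to 0.908). For Egr2 they were Nrros, Tpd52l2, AABR07058831.1, Mc4r and Tbkbp1 (0.882 to 0.905), and for Egr3 they were Nat8l, Sema7a, Kifc2, Pfkfb3 and Klhl29 (0.817 to 0.856). Over libraries 1 and 2 of each group, 6 libraries in all, r was 0.978 to 0.998 for the 5 nearest genes of each member, and Pfkfb3 for Egr3 was the only gene that appeared in both lists. There, Egr4 was nearest to the growth arrest gene Gadd45g (0.998), then Rhob (0.997), Tasp1 and Ppp2r5b (both 0.994). Srf (0.985), the gene of serum response factor, was the last of the 5. No chance level was computed for the highest r among 14111 genes over 6 libraries. These values include the differences between groups and are descriptions.

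Of the 2 co-repressor genes, Nab2, which Egr proteins are known to induce as a feedback, rose in CO: it stood at 32.6 ± 12.1 CPM in NC and 60.2 ± 14.6 in CO, a log2 difference of 0.88 ± 0.24 (edgeR adjusted p = 0.0231). It was 38.6 ± 12.4 CPM in CLCF1, a difference from CO of -0.64 ± 0.24 that did not pass (edgeR adjusted p = 0.0733). Nab1 stood at 51.2, 56.3 and 56.4 CPM in NC, CO and CLCF1 and passed nowhere. Thus 1 of 2 rose in CO, where 6.32% of all genes passed as higher. Nab2 is also counted among the Egr targets below. Nab2 in libraries 1 and 2 alone gave 0.81 and -0.94 in these comparisons, neither of which passed, and neither co-repressor gene passed in libraries 3 to 6 alone.

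Of 21 upstream genes tested, which encode serum response factor, its partners, the ERK cascade and CREB factors, Srf and Crem rose in CO and 19 did not pass, where 6.32% of all genes tested passed as higher. The median log2 fold change was 0.01, against 0.007 over all genes. Srf went from 61.4 ± 13.4 CPM in NC to 98.9 ± 15.9 in CO (0.69 ± 0.17, edgeR adjusted p = 0.0126) and to 46.3 ± 11.3 in CLCF1 (-1.09 ± 0.17 against CO, edgeR adjusted p = 0.000614). Crem, whose inducible form represses CREB targets, went from 11.4 ± 6.81 to 53.6 ± 13.2 CPM (2.24 ± 0.37, edgeR adjusted p = 0.00132) and stood at 35.4 ± 15.3 in CLCF1, where the difference from CO did not pass (edgeR adjusted p = 0.255) and that from NC did (1.64 ± 0.36, edgeR adjusted p = 0.00943). In CLCF1 against CO, Srf fell, while the kinase genes Rps6ka1 (0.73 ± 0.16) and Mapk3, which encodes ERK1 (0.42 ± 0.12), rose and 18 did not pass, where 8.63% of all genes passed as higher and 8.34% as lower. With 2 or 3 of 21 genes passing, the list stood near these shares. The ternary complex factor genes Elk1, Elk3 and Elk4 passed in none of the 3 comparisons. Of other factors that bind GC-rich boxes, Wt1 was at 0 in every library. Sp1 (0.66 ± 0.20) and Sp3 (1.12 ± 0.33) were higher in CLCF1 than in CO (edgeR adjusted p = 0.0312 and 0.0268), while Sp4 (0.98 ± 0.39) did not pass (edgeR adjusted p = 0.0889). None of the 3 passed between CO and NC. No upstream gene and no Sp gene passed in libraries 1 and 2 alone. Srf gave 0.87 and -0.87 there, and Crem 1.76 and -1.27. In libraries 3 to 6 alone, 1 upstream gene was higher in CO than in NC, 2 were higher and 1 lower in CLCF1 than in CO, and no Sp gene passed.

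Of 27 tested genes described as Egr targets in neurons, vessels or immune cells, 8 rose in CO, 0 fell and 19 did not pass, with a median of 0.24, where 6.32% of all genes passed as higher. In CLCF1 against CO, 9 were lower, 2 higher and 16 did not pass, with a median of -0.28 against 0.002 over all genes, of which 8.34% passed as lower and 8.63% as higher. By the smallest p-values, those that rose in CO were led by Ccl2, Il1b, Ptges and Vegfa. Ptges, which makes prostaglandin E, went from 2.81 ± 1.09 to 8.38 ± 2.00 CPM (1.58 ± 0.27) and back to 3.26 ± 1.03 in CLCF1 (-1.36 ± 0.27). Vegfa, an angiogenic factor, went from 76.8 ± 19.0 to 125 ± 19.8 and 72.9 ± 11.5 CPM. Ccl2 and Il1b, inflammatory mediators, stood at 0.0927 and 0.216 CPM in NC, 4.45 and 4.57 in CO, and 1.31 and 0.0298 in CLCF1. Both were near the floor in NC, so their place among the genes tested and their calls rest mainly on CO counts. The 8 that rose include them. In CLCF1 against CO, Gadd45b, a stress-response gene, fell by 2.03 ± 0.39. Cxcl2, a neutrophil chemokine, passed too, with 1.32 ± 0.544 CPM in CO and no count in any CLCF1 library. Like Il1b, Cxcl2 was at or near the floor in CLCF1, and its call there rests on its CO counts. Arc, a synaptic gene that Egr1 and Egr3 are known to bind, is named after its values were seen: it stood at 126 ± 31.5, 141 ± 20.2 and 74.4 ± 38.8 CPM and was lower in CLCF1 than in CO (-0.92 ± 0.27, edgeR adjusted p = 0.0225). In CLCF1 against NC, 3 target genes were higher, 5 lower and 19 did not pass (4.43% and 4.84% of all genes). Among them Ngfr, a neurotrophin receptor, fell by 3.16 ± 0.67 and Ache, acetylcholinesterase, by 0.95 ± 0.22. None of the 27 passed in any comparison of libraries 1 and 2 alone, and the medians were 0.30 in CO against NC and -0.30 in CLCF1 against CO. Libraries 3 to 6 alone gave 3 higher in CO against NC, 7 lower in CLCF1 against CO, and 1 higher and 2 lower in CLCF1 against NC. Of 21 targets with a promoter window, 6 held the Egr consensus GCGNGGGCG (28.6%): Ache, Gabra4, Ptges, Syn1, Syn2 and Th. It was in 5.29% of all windows, and in 4 of 13 windows of other immediate early factors (30.8%), so it was not particular to the targets.

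Of 8 genes that Egr2 is known to drive in Schwann cells, 2 fell in CLCF1 against CO and 6 did not pass, with a median of -0.47, where 8.34% of all genes passed as lower. Among them Mag, a myelin adhesion protein also made by oligodendrocytes, fell by 1.00 ± 0.19 (edgeR adjusted p = 0.00234). In CO against NC 1 of the 8 rose and 7 did not pass (6.32% of all genes passed as higher). Oligodendrocyte markers (8 genes) summed to 10300 to 20800 CPM in CO and 7950 to 16700 in CLCF1, and their part was not tested. Prx, a myelin gene of Schwann cells, had group means of 2.08 to 3.00 CPM and passed in no comparison. Over libraries 1 and 2 alone the 8 had a median of -0.51 in CLCF1 against CO and none passed, and over libraries 3 to 6 alone the median was -0.44 and 1 passed as lower.

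Of 18 other immediate early factors tested, 12 rose in CO and 6 did not pass (median 1.07), where 6.32% of all genes passed as higher. In CLCF1 against CO 13 fell and 5 did not pass (median -1.41), where 8.34% of all genes passed as lower. In libraries 1 and 2 alone, 2 passed in the first and 3 in the second comparison, with medians of 0.98 and -1.26. In libraries 3 to 6 alone 4 rose and 8 fell, with medians of 1.2 and -1.58. Nr4a1, an orphan nuclear receptor, stood at 49.1 ± 24.5, 164 ± 67.7 and 28.2 ± 17.5 CPM, with log2 fold changes of 1.74 ± 0.39 and -2.54 ± 0.41. Fos, an AP-1 subunit, stood at 53.7 ± 27.0, 172 ± 52.9 and 14.7 ± 11.4 CPM, and like Egr1 was lower in CLCF1 than in NC (-1.86 ± 0.56, edgeR adjusted p = 0.0417). Nr4a3, Fosl2, Maff and Atf3 rose in CO by 3.54 ± 0.66, 3.14 ± 0.61, 2.45 ± 0.45 and 1.66 ± 0.46, and Nr4a3 and Atf3 fell by 3.76 ± 0.67 and 2.54 ± 0.47 in CLCF1 against CO. Npas4, an activity-induced neuronal factor, and the Krüppel-like factor genes Klf2 and Klf4 had the pattern of Egr2: they did not pass between CO and NC (-0.15 ± 0.36, -0.20 ± 0.18 and 0.06 ± 0.22) and were lower in CLCF1 than in NC (-1.74 ± 0.38, -1.16 ± 0.19 and -0.80 ± 0.23). Of the 18 factors, 4 were lower in CLCF1 than in NC, 1 was higher and 13 did not pass (median -0.25). Of all genes, 4.84% passed as lower there and 4.43% as higher. In that comparison no factor passed in libraries 1 and 2 alone, and 2 were lower in libraries 3 to 6 alone. Fosl1 and Dusp5, whose promoter windows share the motif arrangement of the Egr genes, passed in no comparison of CLCF1 with CO (-0.12 ± 0.31 and -0.27 ± 0.36). Fosl1 rose in CO (1.19 ± 0.32, edgeR adjusted p = 0.0206), whereas Dusp5 did not pass (0.68 ± 0.37, edgeR adjusted p = 0.222).

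Of 12 feedback inhibitors of receptor and MAP kinase signalling, 2 rose in CO and 10 did not pass, where 6.32% of all genes passed as higher. Errfi1, an inhibitor of the EGF receptor, rose from 42.0 ± 22.2 to 161 ± 23.0 CPM (1.94 ± 0.32). Dusp7, a phosphatase of ERK, rose by 0.47 ± 0.15. In CLCF1 against CO, 4 fell and 8 did not pass: Errfi1 (-2.12 ± 0.33) and the phosphatase genes Dusp1 (-2.10 ± 0.31), Dusp4 (-0.91 ± 0.18) and Dusp6 (-0.88 ± 0.21). Of all genes, 8.34% passed as lower. Dusp1 too did not pass between CO and NC (0.44 ± 0.29) and was lower in CLCF1 than in NC (-1.66 ± 0.30, edgeR adjusted p = 0.00276), as was Dusp4 (-0.66 ± 0.18, edgeR adjusted p = 0.0251). The other 10 did not pass between CLCF1 and NC, where 4.84% of all genes passed as lower. Of the 12, 1 passed in libraries 1 and 2 alone, Errfi1 in CLCF1 against CO. Libraries 3 to 6 alone gave 1 higher in CO against NC, 3 lower in CLCF1 against CO and 1 lower in CLCF1 against NC.

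**Figure D4:**
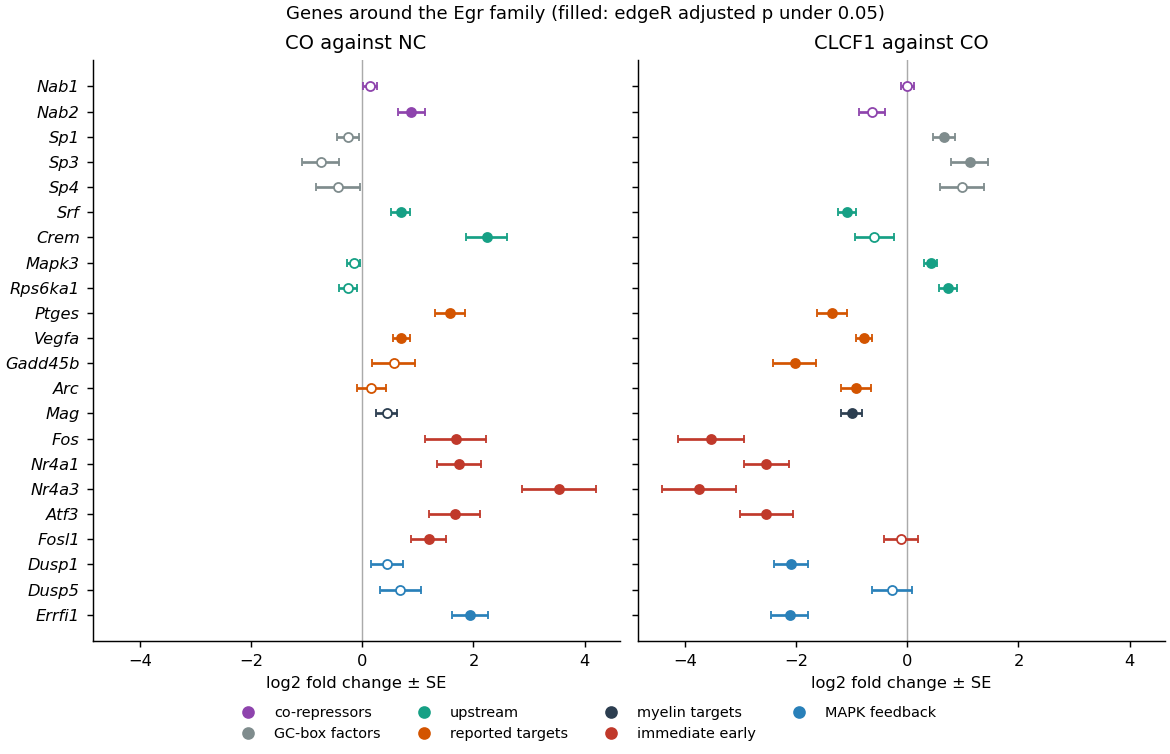
Log2 fold changes ± SE (x axes, same scale) of 22 genes around the Egr family (y axis) in CO against NC and CLCF1 against CO, coloured by list, filled where the edgeR adjusted p is under 0.05. Srf, Ptges, Vegfa, Fos, Nr4a1, Nr4a3, Atf3 and Errfi1 are filled right of 0 in the first panel and left of 0 in the second, while Sp1 and Sp3 are filled on the right in the second only; a difference between panels was not tested.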

How the data were processed

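Gene counts of 18 rat brain libraries were deposited by the authors as 1 table of whole numbers, with no normalization. It lists 32545 rat Ensembl genes and 2328 unnamed loci. The aligner and counter were not given in the sources used here, and only mouse builds are named, per the submitters' processing notes. Per the labels' protocols, libraries were made from total RNA with a SMARTER mRNA kit. Strandedness is not stated, so antisense reads cannot be told apart.

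Tests were run on these counts in edgeR 4.0.16 (R 4.3.3): filterByExpr defaults, TMM, 1 robust quasi-likelihood fit of 3 group means over 18 libraries, and Benjamini-Hochberg adjustment over all genes tested. The common dispersion was 0.0972. Standard errors were derived from the fold change and F statistic. The script was tested on counts drawn with known changes. Alternatives were DESeq2 1.42.0, 2 other scalings, 2 filters, fits of 2 groups, a replicate block, subsets of libraries and leaving out each library. Replicate pairs differed by 39.1 to 70.8 in chi-square per degree of freedom, so none was a copy.

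The members and gene lists were chosen with earlier results of these data known. Genes named are the 4 members, all co-repressors and GC-box factors tested, up to 4 passing genes with the smallest p per list and comparison, and the 5 genes nearest each member. Others are described after their values were seen: Arc, Elk1, Elk3, Elk4, Prx, Dusp5 and motif-bearing targets. Some genes that the rule names are not reported here. List counts in subsets of libraries were added after the data were seen. Promoters are from RefSeq, and motif matches are exact.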

Additional observations from a re-analysis of the deposited data

Results flagged for a closer look

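Egr2 in CLCF1 library 4 stood at 0.922 CPM (17 counts), away from the other 5 libraries of its group at 2.68 to 3.52 CPM. Its gap to the nearest library was 0.676 of the group's range. Of 12 groups of 6 values checked for the Egr genes, 1 stood out in this way, and chance alone is expected to pick about 5% of groups. Without that library, the log2 fold change of Egr2 was -2.98 in CLCF1 against CO (edgeR adjusted p = 9.2e-06; over all fits that left out 1 library it ran from -3.27 to -2.98).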

How the results depend on the processing

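Directions held under every alternative for Egr1 and Egr4 in all 3 comparisons and for all 4 genes in CLCF1 against CO. With no filter on low counts, 4291, 5645 and 4292 genes passed for CO against NC, for CLCF1 against CO and for CLCF1 against NC, instead of 2110, 2814 and 1536. DESeq2 gave 2334 in CLCF1 against NC. Libraries 1 and 2 alone gave 4, 8 and 2 genes by edgeR (594, 817 and 418 at an unadjusted p under 0.05), and libraries 3 to 6 alone gave 918, 1436 and 736. Egr4 in CO against NC passed with no filter, with DESeq2 and with 2 groups in the fit, each at a log2 fold change of 1.62. In libraries 1 and 2 alone Egr1 no longer passed in CO against NC (0.73), in CLCF1 against CO (-1.35) or in CLCF1 against NC (-0.62), nor did Egr3 (-0.57) and Egr4 (-2.32) in CLCF1 against CO or Egr2 in CLCF1 against NC (-2.53). There, Egr3 in CLCF1 against NC turned to 0.16. In libraries 3 to 6 alone Egr1 no longer passed in CO against NC (0.78) and in CLCF1 against NC (-0.62), and Egr2 in CO against NC turned to -0.04. With 2 groups in the fit, Egr1 in CLCF1 against NC was -0.62 (edgeR adjusted p = 0.0558, and 0.00709 to 1 over its alternatives). Subsets hold fewer libraries, and otherwise the cause was not tested.

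Leaving out each library in turn gave 1672 to 2169 genes in CO against NC, 2427 to 3033 in CLCF1 against CO and 1219 to 1798 in CLCF1 against NC. In the same order of comparisons, log2 fold changes ran from 0.67 to 0.87, -1.53 to -1.33 and -0.76 to -0.51 for Egr1. They ran from 0.01 to 0.33, -3.27 to -2.98 and -3.12 to -2.83 for Egr2. For Egr3 they ran from 0.42 to 0.68, -0.94 to -0.79 and -0.46 to -0.21, and for Egr4 from 1.39 to 1.85, -3.10 to -2.41 and -1.48 to -0.76. Egr4 in CO against NC passed without NC library 4 or CLCF1 library 3, 5 or 6.

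Library numbers are shared by the groups, but correlations of same-numbered libraries ran from -0.03 to 0.15, with 1 of 18 above 0.1, and 7 of 18 libraries were nearest to one of their own number. No chance level was computed for these values, so they do not settle whether the numbers pair the samples. With the replicate block, 1944, 2787 and 1477 genes passed, log2 fold changes in CLCF1 against CO were -1.39, -3.20, -0.87 and -2.79 for Egr1 to Egr4, and no call on an Egr gene changed.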
